A study of Mus musculus with 8 samples.

Results

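Amino acid transporters are the membrane proteins of the solute carrier (SLC) families that move amino acids, and a few close relatives such as creatine and taurine, into and out of cells and lysosomes. The genes described here are all rows of the count table whose symbol belongs to the families Slc1, Slc3, Slc6, Slc7, Slc36, Slc38 or Slc43, apart from Slc1a2, Slc1a3 and Slc6a11, the glutamate and GABA carriers counted among astrocyte transport markers. This rule used no measured value and took 30 of the 13607 genes in the table, of which 29 are reported. These comprise 9 Slc7, 7 Slc38, 5 Slc6, 3 Slc1, 2 Slc36, 2 Slc43 members and 1 Slc3 member. Of the other symbols that the GENCODE M21 annotation holds for these families, 28 were not analysed here. Levels are given as CPM, counts scaled to library size and composition. With counts scaled to library size alone, every gene in the table reached at least 1.01 CPM in at least 2 libraries.

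The libraries came from cultured astrocytes of C57BL/6J mice with floxed Yap1 and Taz (Wwtr1) alleles (Yapf/f;Tazf/f), and 4 groups of 2 libraries, A and B, were sequenced. Gliomaspheres were P1 spheres kept floating in doxycycline medium until 3 weeks had passed from the start. Their sample titles name HER2CA, a constitutively active form of the receptor kinase HER2. The 4OH-TAM-labelled libraries came from astrocytes with HER2CA, kept for 15 days with doxycycline and 1 µM 4-hydroxytamoxifen, the ligand that switches on CreERT2. HER2CA day 15 astrocytes had doxycycline without 4-hydroxytamoxifen. Their condition label and that of the gliomaspheres name DMSO, while the treatment protocol calls such astrocytes untreated. Control astrocytes were untransformed, untreated and kept without doxycycline, in medium that was otherwise the same and held EGF and bFGF. The constructs (inducible HER2CA, rtTA and CreERT2) were delivered by lentivirus. Whether controls carried them, whether the cells were pooled or cloned, and how pure the astrocytes were, the sources used here do not say.

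The label 4OH-TAM was checked first. Yap1 was at 107 and 103 CPM in these libraries, against 101 and 103 CPM in HER2CA day 15. The log2 ratio was 0.04 (SE 0.0682, edgeR adjusted p = 0.569). Wwtr1 was at 123 and 122 CPM, against 194 and 210.3 CPM, a log2 ratio of −0.73 (SE 0.0687, edgeR adjusted p = 1.25e-07). Yap1 counts were thus not lower under the knockout label and Wwtr1 was partly lower. Counts over whole genes do not settle whether the floxed alleles were deleted, so every direction below for these libraries rests on the label alone. Depth ran from 15517708 counts (gliomaspheres B) to 28231426 counts (HER2CA day 15 B). Gliomaspheres B stood apart, since the ribosomal precursor Rn45s took 36.1% of its counts, against 0.984% to 2.92% in the other 7 libraries. The transporters' summed level was 2572 to 2787 CPM in gliomaspheres, 3888 to 4286 CPM in the 4OH-TAM-labelled libraries, 3802 to 3819 CPM in HER2CA day 15 and 2504 to 2557 CPM in controls. The astrocyte genes Gfap, Aqp4 and Aldh1l1 were each detected in all 8 libraries, with the lowest levels in HER2CA day 15. Detection alone does not settle the cell type, since markers of other cell types were detected too. Aldh1l1, for example, was at 31.9 and 44.0 CPM in HER2CA day 15, against 348 and 404 CPM in controls.

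As background, amino acid carriers differ in substrate and in driving force. Slc7 light chains pair with the heavy chain Slc3a2 (CD98), which brings them to the cell surface, and exchange one amino acid for another. The cationic carriers of the same family work alone and bring in arginine and lysine. Slc38 and Slc1 carriers use the sodium gradient to move glutamine, small neutral amino acids or glutamate. Slc6 carriers use sodium and chloride, and in brain tissue clear neurotransmitters such as glycine. When amino acids are short or the endoplasmic reticulum is stressed, the transcription factor ATF4 is known to raise the transcripts of many such carriers.

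Transporter transcripts differed between groups in both directions, as did most genes in the table. In the 4OH-TAM-labelled libraries against HER2CA day 15, 16 of 29 were called higher and 8 lower. A call is an adjusted p below 0.05 in the edgeR quasi-likelihood test over all genes. These are 55.2% and 27.6% of the transporters, against 40.8% and 39.7% of all genes tested. At least 2-fold, 9 were higher and 5 lower, or 31.0% and 17.2%, against 23.9% and 9.30% of all genes. The median log2 fold change was 0.38 over the transporters and 0.01 over all genes. Both directions of the 2-fold counts were therefore above the share in all genes, and lower calls at any size were below it.

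In HER2CA day 15 against controls, 14 of 29 transporters were higher and 13 lower, or 48.3% and 44.8%, against 37.3% and 38.4% of all genes. Unscaled library sizes gave 10 higher and 8 lower (16.9% and 26.4% of all genes), and upper-quartile factors 11 higher and 14 lower (30.9% and 44.8% of all genes). At least 2-fold, 8 were higher and 6 lower, or 27.6% and 20.7%, against 10.1% and 19.5% of all genes. The median log2 fold change was 0.03, against −0.02 over all genes. In the 4OH-TAM-labelled libraries against controls, 19 were higher and 7 lower, or 65.5% and 24.1%, against 31.0% and 28.2% of all genes. With unscaled library sizes the split was 14 higher and 1 lower, beside 15.5% and 3.96% of all genes at that setting. At least 2-fold, 12 were higher (41.4%, against 12.1%) and 1 was lower (3.45%, against 2.95%). The median was 0.70, against 0.0018 over all genes. The shift to higher levels was thus wider than in all genes for this comparison.

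In gliomaspheres against controls, 11 transporters were higher and 11 lower, or 37.9% each, against 32.5% and 32.0% of all genes, which is near the background. Without control A the counts were 11 higher and 7 lower (28.4% and 27.4% of all genes), and with unscaled library sizes 7 higher and 6 lower (10.2% and 24.0% of all genes). At least 2-fold, 7 were higher (24.1%, against 11.4%) and 2 were lower (6.90%, against 8.58%), with a median of 0.11 against −0.0054 over all genes. In gliomaspheres against HER2CA day 15, 11 were higher and 14 lower, or 37.9% and 48.3%, against 38.4% and 40.4%. Unscaled library sizes gave 6 higher and 13 lower, beside 22.3% and 34.0% of all genes at that setting, whose median was then −0.30. At least 2-fold, 6 were higher and 8 lower, or 20.7% and 27.6%, against 22.1% and 14.1% of all genes. The medians were 0.07 and −0.03. Without gliomaspheres B, whose ribosomal share stood apart, 11 transporters were higher and 10 lower against controls and 11 higher and 13 lower against HER2CA day 15. Only the calls of Slc36a4 changed, and the gliomasphere differences of at least 2-fold given below kept their calls. For Slc7a1 the log2 fold change against HER2CA day 15 was then −3.54 and for Slc38a3 4.67. The comparisons share libraries, so they are not independent of one another, and gliomaspheres were not tested against the 4OH-TAM-labelled libraries. With 2 libraries a group, and no statement in the labels that they were separate cultures, the spread between libraries may be technical. Each p-value rests on that spread within the groups of all 8 libraries, with each gene's estimate drawn towards that of other genes.

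**Figure D1:**
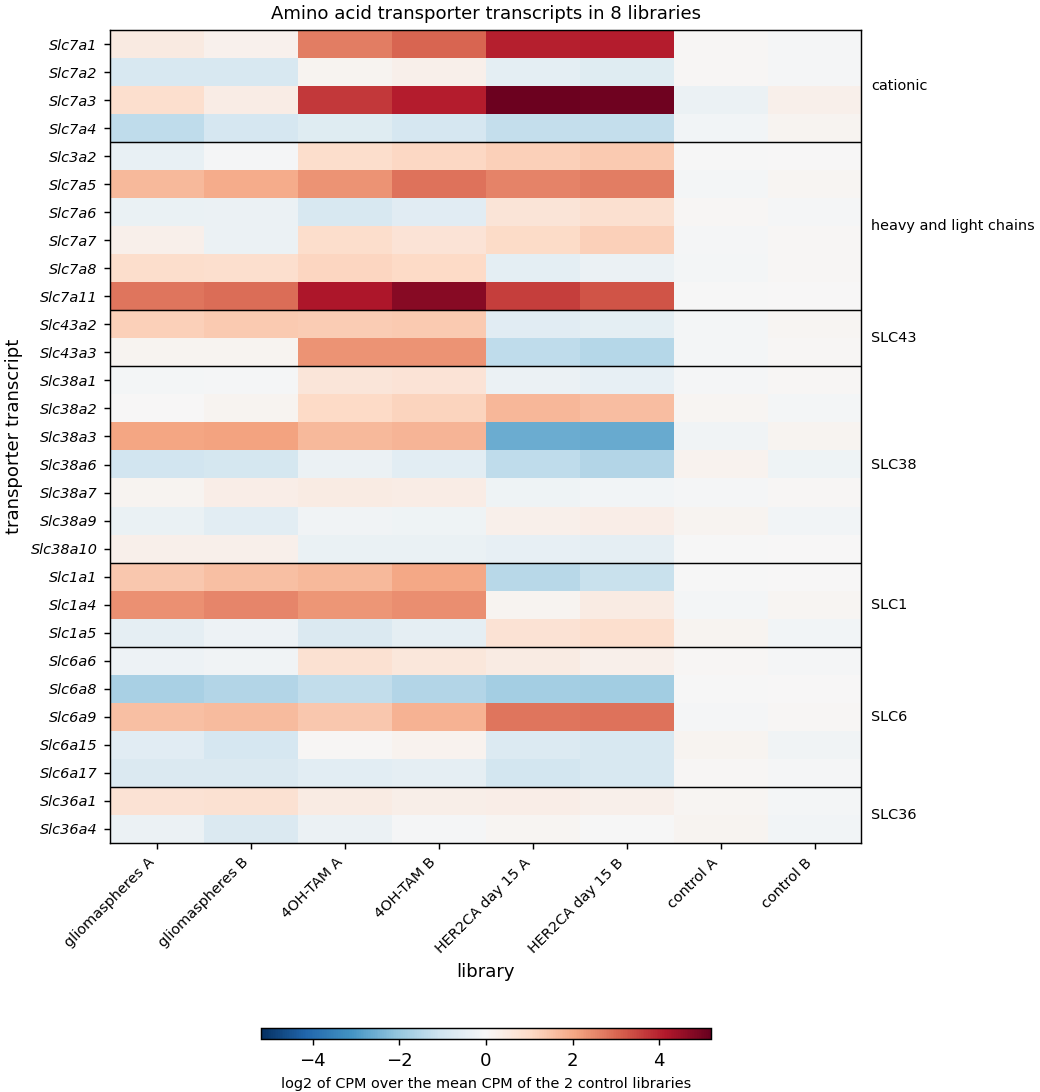
Heat map of the 29 transporter transcripts (rows, grouped by role or family) in the 8 libraries (columns), coloured by the log2 of CPM over the mean CPM of the 2 control libraries. The strongest increases over controls are Slc7a3, Slc7a1 and Slc7a11 in the day 15 libraries, and the strongest decrease is Slc38a3 in HER2CA day 15.

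Among the cationic carriers, the arginine and lysine carriers Slc7a1 and Slc7a3 were high in both day 15 groups, while Slc7a4 was low there and Slc7a2 changed less. Slc7a1 (chromosome 5, 148327410 to 148399904, minus strand, GRCm38), the widely used arginine importer, had 48.0 and 40.4 CPM in gliomaspheres, 222 and 280.1 CPM in the 4OH-TAM-labelled libraries, 568 and 582 CPM in HER2CA day 15, and 35.9 and 33.2 CPM in the controls. No 2 groups overlapped, and HER2CA day 15 was highest. Its log2 fold change was 4.06 in HER2CA day 15 against controls (SE 0.115, edgeR adjusted p = 7.97e-13), a 16.6-fold difference. It was 2.86 in the 4OH-TAM-labelled libraries against controls (SE 0.111, edgeR adjusted p = 7.37e-11) and −1.20 in them against HER2CA day 15 (SE 0.101, edgeR adjusted p = 3.41e-08). Gliomaspheres were lower than HER2CA day 15, with a log2 fold change of −3.69 (SE 0.115, edgeR adjusted p = 3.71e-13). Their rise over controls was 0.37 (SE 0.114, edgeR adjusted p = 0.0106), and this call was lost without gliomaspheres A (0.22, adjusted p = 0.172) and without control B (0.31, adjusted p = 0.0804).

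Slc7a3 (chromosome X, 101079210 to 101086020, minus strand), a relative of Slc7a1 with the same kind of substrates, was a low transcript with the same order of the day 15 groups. It had 1.13 and 0.809 CPM in gliomaspheres, 7.97 and 10.6 CPM in the 4OH-TAM-labelled libraries, 21.0 and 20.5 CPM in HER2CA day 15, and 0.499 and 0.741 CPM in the controls. The day 15 groups stood clear of each other and of the other groups. Gliomaspheres rested on 27 and 8 counts and controls on 13 and 18 counts, and these groups lay close together. The change on the log2 scale was 5.06 in HER2CA day 15 against controls (SE 0.218, edgeR adjusted p = 2.51e-11). Only in the day 15 groups did both libraries reach 1.01 CPM, with or without scaling to composition. Every gene in the table reached that level, scaled to library size alone, in at least 2 libraries. Slc7a3 thus met it through the groups where it was high. Its log2 fold change was 3.90 in the 4OH-TAM-labelled libraries against controls (SE 0.235, edgeR adjusted p = 4.63e-09) and −1.16 in them against HER2CA day 15 (SE 0.144, edgeR adjusted p = 2.57e-06). Gliomaspheres against controls gave 0.74 (SE 0.378, edgeR adjusted p = 0.101), which was not called.

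Slc7a4 (chromosome 16, 17572018 to 17583214, minus strand), grouped with the cationic carriers by sequence, ran the other way. It had 8.34 and 11.3 CPM in gliomaspheres, 13.5 and 11.6 CPM in the 4OH-TAM-labelled libraries, 8.80 and 8.93 CPM in HER2CA day 15, and 18.9 and 23.1 CPM in the controls. Controls were above all other libraries, and gliomaspheres overlapped HER2CA day 15. Its log2 fold change was −1.24 in HER2CA day 15 against controls (SE 0.145, edgeR adjusted p = 1.52e-06) and −1.14 in gliomaspheres against controls (SE 0.154, edgeR adjusted p = 1.18e-05). Of its exons, 13.3% lie opposite those of P2rx6, an ATP receptor gene, and P2rx6 was lowest in HER2CA day 15, with 8.26 and 8.50 CPM in gliomaspheres, 20.4 and 18.2 CPM in the 4OH-TAM-labelled libraries, 2.80 and 2.93 CPM in HER2CA day 15, and 19.0 and 20.9 CPM in the controls. Whether the counting used strand is not given, and the part of P2rx6 reads in this result was not tested. Slc7a2, an arginine carrier known from liver and macrophages, stayed between 58.8 and 125 CPM, and its calls were 2 higher and 3 lower over the 5 comparisons.

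Of the heavy chain and the light chains it carries, Slc3a2, Slc7a5 and Slc7a11 rose in both day 15 groups against controls. Slc7a6 and Slc7a8 moved in opposite directions to each other. Slc3a2 (chromosome 19, 8706882 to 8723369, minus strand), the heavy chain, had 276 and 344 CPM in gliomaspheres, 685 and 755 CPM in the 4OH-TAM-labelled libraries, 855 and 918 CPM in HER2CA day 15, and 362 and 363 CPM in the controls. The day 15 libraries were all above the others. As a log2 fold change, the difference was 1.29 in HER2CA day 15 against controls (SE 0.0970, edgeR adjusted p = 1.09e-08) and 0.99 in the 4OH-TAM-labelled libraries against controls (SE 0.0965, edgeR adjusted p = 6.63e-07). Gliomaspheres were lower than HER2CA day 15 by a log2 fold change of −1.52 (SE 0.0981, edgeR adjusted p = 1.34e-09). The smaller differences did not hold throughout. Against HER2CA day 15 the 4OH-TAM-labelled libraries gave −0.30 (SE 0.0954, edgeR adjusted p = 0.00943), which was lost with upper-quartile scaling (−0.09, adjusted p = 0.376), with unscaled library sizes (−0.18, adjusted p = 0.640), without HER2CA day 15 B (adjusted p = 0.0822) and without 4OH-TAM A (adjusted p = 0.100). Gliomaspheres against controls gave −0.23 (SE 0.0965, edgeR adjusted p = 0.0491), and without gliomaspheres A this was −0.08 (adjusted p = 0.477).

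Slc7a5 (chromosome 8, 121881150 to 121907694, minus strand), the light chain that exchanges intracellular glutamine for leucine and other large neutral amino acids, had 233 and 270.3 CPM in gliomaspheres, 365 and 505 CPM in the 4OH-TAM-labelled libraries, 432 and 455 CPM in HER2CA day 15, and 66.0 and 77.6 CPM in the controls. All 6 libraries with doxycycline exceeded both controls. The log2 fold change against controls was 1.81 in gliomaspheres (SE 0.131, edgeR adjusted p = 1.44e-08), 2.60 in the 4OH-TAM-labelled libraries (SE 0.133, edgeR adjusted p = 9.09e-10) and 2.63 in HER2CA day 15 (SE 0.133, edgeR adjusted p = 1.38e-10). The day 15 groups overlapped, with a log2 fold change of −0.03 (SE 0.123, edgeR adjusted p = 0.832) that was called lower only without 4OH-TAM B (−0.28, adjusted p = 0.0406).

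Slc7a11 (chromosome 3, 49892526 to 50443614, minus strand), the light chain of the cystine and glutamate exchanger xCT, supplies cysteine for glutathione. It had 28.1 and 30.1 CPM in gliomaspheres, 74.0 and 106 CPM in the 4OH-TAM-labelled libraries, 49.5 and 39.3 CPM in HER2CA day 15, and 3.99 and 4.08 CPM in the controls. No 2 groups overlapped, and the 4OH-TAM-labelled libraries were highest. The change on the log2 scale against controls was 2.84 in gliomaspheres (SE 0.196, edgeR adjusted p = 8.92e-09), 4.48 in the 4OH-TAM-labelled libraries (SE 0.181, edgeR adjusted p = 1.11e-10) and 3.45 in HER2CA day 15 (SE 0.185, edgeR adjusted p = 2.6e-10). Against HER2CA day 15 it was 1.03 in the 4OH-TAM-labelled libraries (SE 0.138, edgeR adjusted p = 5.82e-06), whereas Slc7a1 and Slc7a3 were lower there.

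Slc7a6, a light chain that exchanges cationic for neutral amino acids, had 37.6 and 38.4 CPM in gliomaspheres, 27.2 and 31.6 CPM in the 4OH-TAM-labelled libraries, 77.0 and 85.5 CPM in HER2CA day 15, and 49.8 and 46.1 CPM in the controls. HER2CA day 15 was highest and the 4OH-TAM-labelled libraries lowest, with no overlap. Between these groups, 4OH-TAM over HER2CA day 15, the log2 fold change was −1.47 (SE 0.0901, edgeR adjusted p = 9.88e-10). Slc7a8, a light chain for neutral amino acids of all sizes, showed the reverse order. It had 21.6 and 21.0 CPM in gliomaspheres, 25.0 and 23.1 CPM in the 4OH-TAM-labelled libraries, 8.02 and 9.21 CPM in HER2CA day 15, and 10.8 and 12.1 CPM in the controls. The 4OH-TAM-labelled libraries were above HER2CA day 15 by a log2 fold change of 1.48 (SE 0.113, edgeR adjusted p = 1.14e-08), and gliomaspheres were above controls by 0.90 (SE 0.115, edgeR adjusted p = 6.62e-06). The decrease in HER2CA day 15 against controls (−0.40, SE 0.120, edgeR adjusted p = 0.00696) was lost without HER2CA day 15 A (adjusted p = 0.0645) and without control B (adjusted p = 0.0720). Slc7a7, another light chain for cationic amino acids, did not exceed 4.45 CPM.

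**Figure D2:**
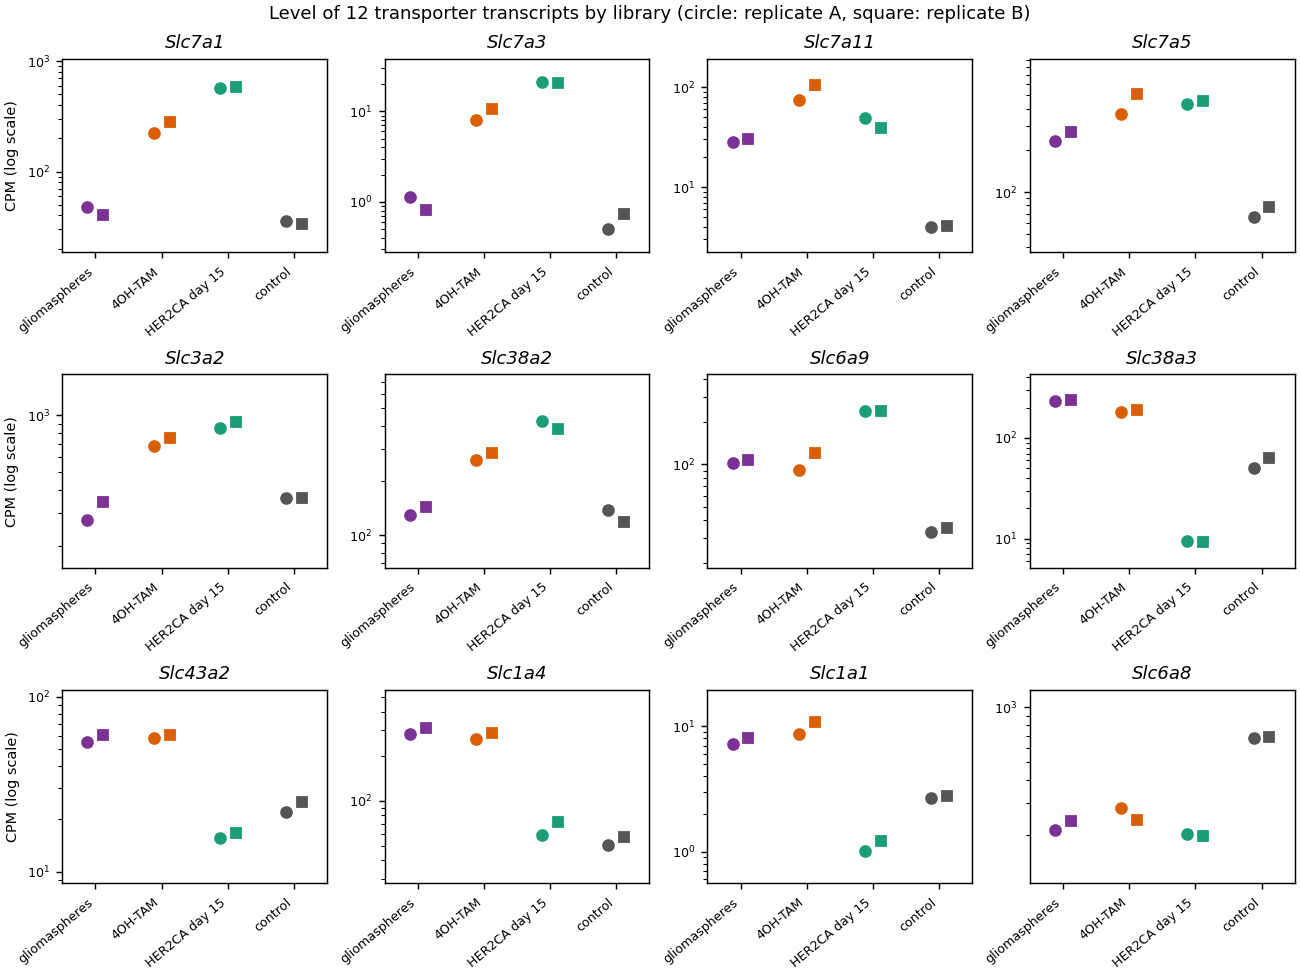
Level of 12 transporter transcripts in each library (CPM, log axis; circles are replicate A, squares replicate B). Slc7a1, Slc7a3, Slc3a2 and Slc38a2 are highest in HER2CA day 15, Slc38a3, Slc43a2 and Slc1a1 are lowest there, and Slc6a8 is highest in controls.

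Promoter sequence is shown for 3 genes picked from those that rose several-fold against controls, as ATF4 is known to act on carriers of this kind. Slc1a4 rose so in gliomaspheres and the 4OH-TAM-labelled libraries, but only 1.23-fold in HER2CA day 15. Slc6a9 and Slc38a2 rose 6.93-fold and 3.18-fold in HER2CA day 15, and their promoters, not printed, had no match to the ATF4 element. RefSeq promoters on GRCm38.p6 (250 bases before the start to 50 after it) were at hand for 18 of the 29 transporters, 28 promoters in all. The ATF4 element was searched as TGATGNAA on both strands. Its letters are in capitals:
Slc7a11: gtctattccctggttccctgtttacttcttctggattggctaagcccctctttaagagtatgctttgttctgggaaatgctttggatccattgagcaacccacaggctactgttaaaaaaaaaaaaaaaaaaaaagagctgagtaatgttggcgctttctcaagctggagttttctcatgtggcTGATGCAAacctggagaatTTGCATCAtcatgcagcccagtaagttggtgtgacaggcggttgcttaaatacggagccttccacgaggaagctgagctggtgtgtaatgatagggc
Slc1a4: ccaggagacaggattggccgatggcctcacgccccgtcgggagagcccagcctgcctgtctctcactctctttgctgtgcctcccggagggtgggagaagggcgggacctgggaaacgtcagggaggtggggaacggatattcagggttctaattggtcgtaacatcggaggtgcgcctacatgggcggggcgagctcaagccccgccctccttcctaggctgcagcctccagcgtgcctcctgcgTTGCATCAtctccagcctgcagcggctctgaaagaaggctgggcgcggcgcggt
Slc7a1: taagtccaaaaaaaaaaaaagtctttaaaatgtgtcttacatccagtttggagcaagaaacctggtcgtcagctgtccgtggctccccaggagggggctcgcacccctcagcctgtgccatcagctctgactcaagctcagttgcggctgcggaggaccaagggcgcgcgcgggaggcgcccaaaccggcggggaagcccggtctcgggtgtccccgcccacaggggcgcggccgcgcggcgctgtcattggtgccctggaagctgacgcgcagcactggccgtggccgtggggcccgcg
The windows are chr3:50443564-50443863, chr11:20332664-20332963 and chr5:148399855-148400154, all on the minus strand. Slc7a11 holds the element at −66 to −59 and, on the opposite strand, at −47 to −40 from the start. Slc1a4, the carrier of alanine, serine and cysteine, holds it across the start, from −4 to 4, on the opposite strand. The upstream promoter of Slc7a1 has no match, which says only that these letters are not in this window.

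Over all transporters, the ATF4 element was in 4 of 28 promoters, of the 3 genes Slc7a11, Slc1a4 and Slc7a7, against 3.97% of 32851 promoters. The AP-1 site (TGANTCA) was in 5, of Slc38a10, Slc38a7, Slc6a17 and Slc7a1, against 7.81%. The TEAD site (GGAATG), bound by the partners of YAP and TAZ, was in 5, of Slc36a1, Slc43a2, Slc6a9 and Slc7a7, against 14.7%. The E-box (CACGTG) was in 2, of Slc36a1 and Slc38a7, against 7.15%, and the antioxidant element (TGACNNNGC) in 7, of Slc36a1, Slc38a2, Slc6a9, Slc7a1 and Slc7a6, against 12.4%. The only matches that overlapped were those of the E-box and the antioxidant element in Slc36a1. A match is a description of the letters, and several promoters of a gene can share sequence.

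The Slc43 carriers rose in the 4OH-TAM-labelled libraries. Slc43a2 (chromosome 11, 75531694 to 75577575, plus strand), which moves large neutral amino acids by facilitated diffusion, had 55.0 and 60.6 CPM in gliomaspheres, 58.1 and 60.7 CPM in the 4OH-TAM-labelled libraries, 15.5 and 16.7 CPM in HER2CA day 15, and 21.8 and 25.1 CPM in the controls. Gliomaspheres and the 4OH-TAM-labelled libraries were above every library of the other groups. As a log2 fold change, the difference was 1.88 in the 4OH-TAM-labelled libraries against HER2CA day 15 (SE 0.0938, edgeR adjusted p = 9.87e-11) and 1.30 in gliomaspheres against controls (SE 0.0930, edgeR adjusted p = 1.34e-08).

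Slc43a3, named for its family but known as a carrier of purine bases, was low. It had 2.14 and 2.12 CPM in gliomaspheres, 9.77 and 9.87 CPM in the 4OH-TAM-labelled libraries, 0.779 and 0.690 CPM in HER2CA day 15, and 1.84 and 2.06 CPM in the controls. Its log2 fold change was 3.74 in the 4OH-TAM-labelled libraries against HER2CA day 15 (SE 0.189, edgeR adjusted p = 1.09e-10) and 2.33 against controls (SE 0.158, edgeR adjusted p = 1.45e-08). Microglia and macrophage markers were also highest in the 4OH-TAM-labelled libraries. Of 14 markers, 13 were in the table, and they summed to 113 to 117 CPM in gliomaspheres, 1050 to 1093 CPM in the 4OH-TAM-labelled libraries, 205 to 216 CPM in HER2CA day 15 and 201 to 221 CPM in controls. The sum was alike in HER2CA day 15 and controls, whereas Slc43a3 was lower in HER2CA day 15 (log2 fold change −1.41, SE 0.242, edgeR adjusted p = 7.96e-05). The sum was lowest in gliomaspheres, where Slc43a3 was not called against controls. No marker was at 0 in any group, and Tmem119 did not exceed 1.34 CPM. Against HER2CA day 15, the microglial genes Cx3cr1, P2ry12 and Tmem119 were higher in the 4OH-TAM-labelled libraries, as was the sum. The log2 fold changes of these genes were 1.19, 3.20 and 4.71 in that order. Against controls they were −0.07 (not called), 1.83 and 1.95. Over all 4 groups, the order of Cx3cr1 and P2ry12 differed from that of the sum. Cx3cr1 was at 5.21 and 6.12 CPM in the 4OH-TAM-labelled libraries and 6.07 and 5.81 CPM in controls, and P2ry12 was highest in gliomaspheres, at 3.27 and 2.33 CPM. The markers' part in this result was not tested. In these bulk samples, fewer cells of a type and less RNA per cell cannot be told apart.

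Among the Slc38 carriers, Slc38a2 rose and Slc38a3 fell in HER2CA day 15 against controls. Slc38a3 (chromosome 9, 107650634 to 107669530, minus strand), through which astrocytes are known to release glutamine, had 230.1 and 237 CPM in gliomaspheres, 182 and 189 CPM in the 4OH-TAM-labelled libraries, 9.40 and 9.24 CPM in HER2CA day 15, and 49.8 and 62.7 CPM in the controls. The 4 groups were fully separated. The log2 fold change was −2.59 in HER2CA day 15 against controls (SE 0.109, edgeR adjusted p = 1.87e-11), and 4.32 in the 4OH-TAM-labelled libraries against HER2CA day 15 (SE 0.108, edgeR adjusted p = 2.26e-13), a 19.9-fold difference. Gliomaspheres were 2.05 above controls on the log2 scale (SE 0.0917, edgeR adjusted p = 6.81e-11) and 4.65 above HER2CA day 15 (SE 0.11, edgeR adjusted p = 2.89e-14).

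Slc38a2 (chromosome 15, 96687392 to 96699730, minus strand), a carrier of small neutral amino acids whose transcript is known to respond to their shortage, had 129.8 and 143 CPM in gliomaspheres, 260.2 and 282 CPM in the 4OH-TAM-labelled libraries, 428 and 385 CPM in HER2CA day 15, and 137 and 119 CPM in the controls. Gliomaspheres overlapped controls, and the day 15 groups stood above both. The change on the log2 scale was 1.67 in HER2CA day 15 against controls (SE 0.0888, edgeR adjusted p = 2.4e-10) and 1.08 in the 4OH-TAM-labelled libraries against controls (SE 0.0879, edgeR adjusted p = 1.04e-07). Between the day 15 groups, 4OH-TAM over HER2CA day 15, it was −0.58 (SE 0.0862, edgeR adjusted p = 1.63e-05), a call lost with unscaled library sizes (adjusted p = 0.184). Gliomaspheres against controls gave 0.09 (SE 0.0891, edgeR adjusted p = 0.399).

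Slc38a1, a glutamine importer, had 507 and 528 CPM in gliomaspheres, 839 and 887 CPM in the 4OH-TAM-labelled libraries, 442 and 408 CPM in HER2CA day 15, and 522 and 574 CPM in the controls. The 4OH-TAM-labelled libraries were highest, and gliomaspheres overlapped controls. The 4OH-TAM-labelled libraries exceeded HER2CA day 15 by a log2 fold change of 1.02 (SE 0.0788, edgeR adjusted p = 1.29e-08). Slc38a6 had 8.00 and 8.30 CPM in gliomaspheres, 12.9 and 10.7 CPM in the 4OH-TAM-labelled libraries, 6.32 and 5.52 CPM in HER2CA day 15, and 17.9 and 13.6 CPM in the controls. HER2CA day 15 was lowest, and its log2 fold change against controls was −1.42 (SE 0.156, edgeR adjusted p = 7.53e-07). The other members, Slc38a7, which exports glutamine from lysosomes, Slc38a9, a lysosomal arginine sensor that acts on the growth kinase complex mTORC1, and Slc38a10, changed by less than 2-fold in every comparison, with log2 fold changes from −0.73 (Slc38a9, gliomaspheres against HER2CA day 15) to 0.73 (Slc38a10, gliomaspheres against HER2CA day 15).

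The Slc1 carriers split by member. Slc1a4 (chromosome 11, 20302180 to 20332713, minus strand), whose promoter is printed above, had 281 and 312 CPM in gliomaspheres, 262 and 288 CPM in the 4OH-TAM-labelled libraries, 59.3 and 72.5 CPM in HER2CA day 15, and 50.3 and 57.0 CPM in the controls. Gliomaspheres and the 4OH-TAM-labelled libraries were far above the other 2 groups. Its log2 fold change against controls was 2.46 in gliomaspheres (SE 0.102, edgeR adjusted p = 3.09e-11) and 2.36 in the 4OH-TAM-labelled libraries (SE 0.101, edgeR adjusted p = 1.61e-10). In HER2CA day 15 against controls it was 0.30 (SE 0.100, edgeR adjusted p = 0.0130), which was lost with upper-quartile scaling (0.14, adjusted p = 0.193), without HER2CA day 15 B (0.15, adjusted p = 0.255) and without control A (0.20, adjusted p = 0.159).

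Slc1a1 (chromosome 19, 28835049 to 28913960, plus strand), a glutamate and cysteine importer known mainly from neurons, had 7.17 and 8.09 CPM in gliomaspheres, 8.66 and 10.8 CPM in the 4OH-TAM-labelled libraries, 1.01 and 1.21 CPM in HER2CA day 15, and 2.69 and 2.76 CPM in the controls. HER2CA day 15 was lowest and did not overlap controls. In log2 terms the change was −1.28 in HER2CA day 15 against controls (SE 0.233, edgeR adjusted p = 0.000142) and 3.11 in the 4OH-TAM-labelled libraries against HER2CA day 15 (SE 0.195, edgeR adjusted p = 1.22e-09). Of its exons, 31.9% lie opposite the coding gene 4430402I18Rik, which had 3.73 and 3.95 CPM in gliomaspheres, 5.32 and 4.67 CPM in the 4OH-TAM-labelled libraries, 1.10 and 1.07 CPM in HER2CA day 15, and 5.45 and 6.84 CPM in the controls. For that gene the log2 fold change was −2.50 in HER2CA day 15 against controls and 2.20 in the 4OH-TAM-labelled libraries against HER2CA day 15, the directions of Slc1a1, while against controls it was −0.69 in gliomaspheres, where Slc1a1 was higher (1.46, SE 0.181, edgeR adjusted p = 5.1e-06). The part of its reads in the Slc1a1 values was not tested. Slc1a5, the glutamine exchanger often named in tumours, was low, with 3.86 and 4.45 CPM in gliomaspheres, 3.18 and 3.90 CPM in the 4OH-TAM-labelled libraries, 9.12 and 9.87 CPM in HER2CA day 15, and 5.87 and 4.86 CPM in the controls. HER2CA day 15 was highest. The log2 fold change was 0.82 in HER2CA day 15 against controls (SE 0.151, edgeR adjusted p = 0.000152) and −1.42 in the 4OH-TAM-labelled libraries against HER2CA day 15 (SE 0.159, edgeR adjusted p = 8.24e-07).

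Among the Slc6 carriers, Slc6a9 rose and Slc6a8 fell in HER2CA day 15 against controls. Slc6a9 (chromosome 4, 117834506 to 117875198, plus strand), the glial glycine carrier, had 102 and 108 CPM in gliomaspheres, 90.7 and 121 CPM in the 4OH-TAM-labelled libraries, 236 and 239.7 CPM in HER2CA day 15, and 33.3 and 35.4 CPM in the controls. HER2CA day 15 was highest and controls were lowest. Its log2 fold change was 2.79 in HER2CA day 15 against controls (SE 0.109, edgeR adjusted p = 9.89e-12), 1.61 in gliomaspheres against controls (SE 0.110, edgeR adjusted p = 7.62e-09) and −1.17 in the 4OH-TAM-labelled libraries against HER2CA day 15 (SE 0.101, edgeR adjusted p = 4.4e-08). Of its exons, 27.8% lie opposite Ccdc24, which was at 2.45 to 5.42 CPM over the 8 libraries, far below Slc6a9. Gm17114, whose level is not given here, lies opposite 9.9% of them. B4galt2, at 30.5 to 51.0 CPM over the 8 libraries, lies opposite 0.9%. The part of these genes' reads in the Slc6a9 values was not tested.

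Slc6a8 (chromosome X, 73673150 to 73682502, plus strand) carries creatine, not an amino acid of proteins. It had 214 and 238 CPM in gliomaspheres, 280.1 and 241 CPM in the 4OH-TAM-labelled libraries, 203 and 197 CPM in HER2CA day 15, and 678 and 690.5 CPM in the controls. Both controls were above all 6 libraries with doxycycline. As a log2 fold change, the difference against controls was −1.60 in gliomaspheres (SE 0.0863, edgeR adjusted p = 5.43e-10), −1.39 in the 4OH-TAM-labelled libraries (SE 0.0851, edgeR adjusted p = 5.13e-09) and −1.78 in HER2CA day 15 (SE 0.0862, edgeR adjusted p = 9.03e-11). It was the only one of the 29 transporters at least 2-fold lower than controls in the 4OH-TAM-labelled libraries. The remaining Slc6 members changed by less than 2-fold throughout: the taurine carrier Slc6a6 (62.2 to 131 CPM), the branched-chain amino acid carrier Slc6a15 (7.08 to 14.7 CPM) and the synaptic vesicle carrier Slc6a17 (17.7 to 35.6 CPM). The lysosomal proton-coupled carriers did likewise, with Slc36a1 at 13.4 to 24.6 CPM and Slc36a4 at 5.46 to 10.02 CPM.

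**Figure D3:**
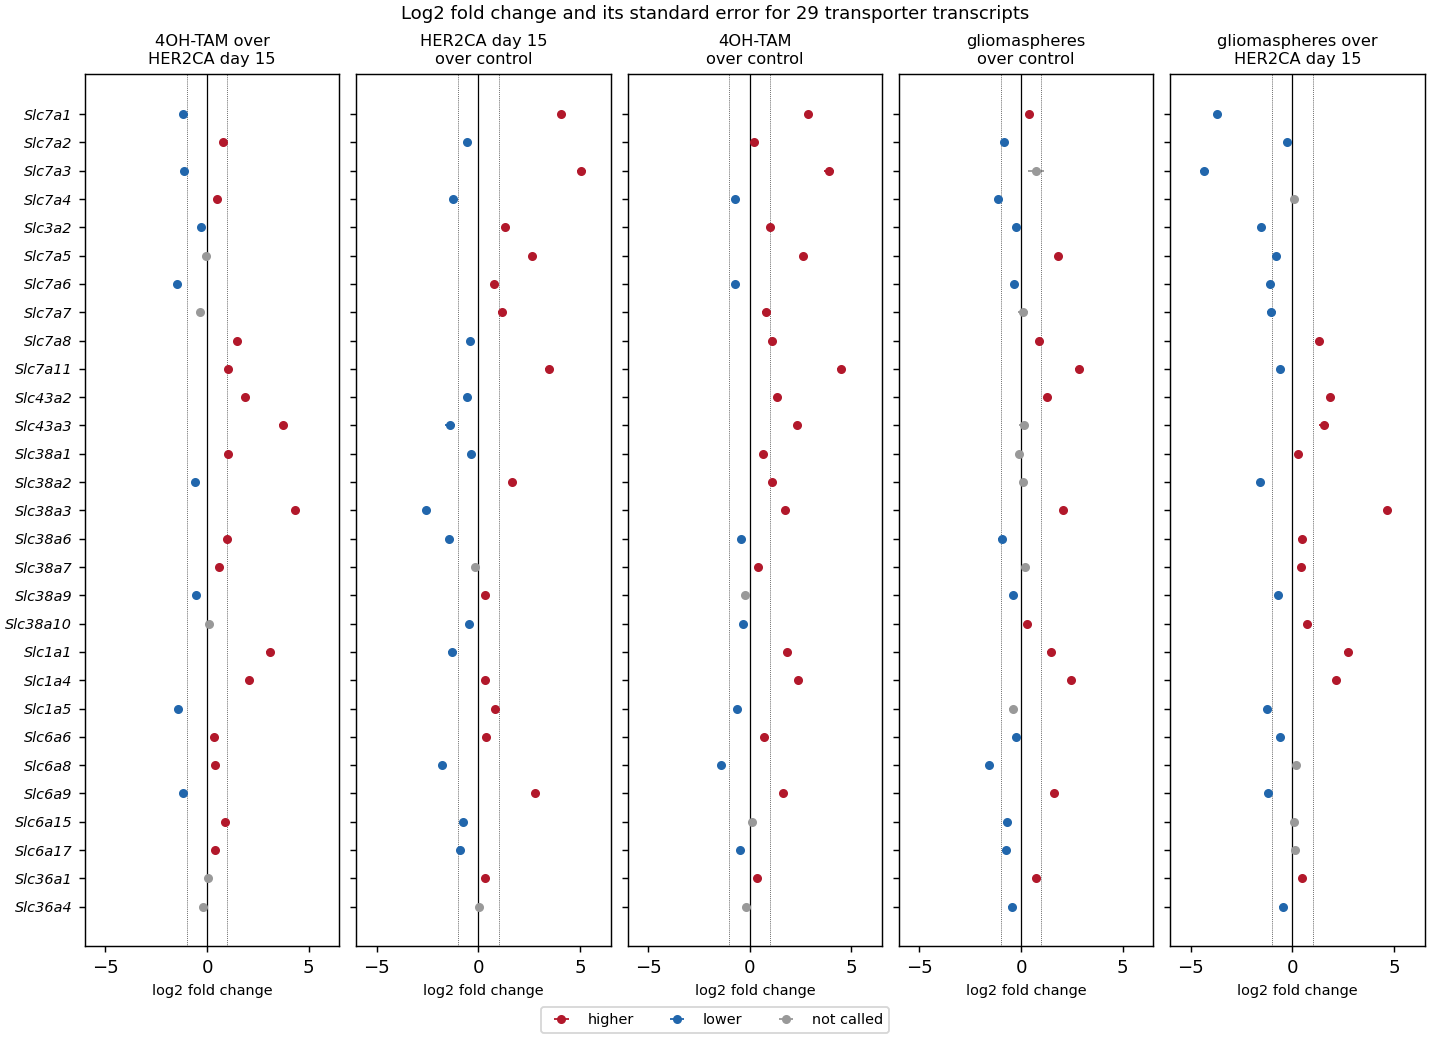
Log2 fold change (points) and its standard error (bars) of the 29 transporter transcripts in the 5 comparisons, with calls at an adjusted p below 0.05 in colour and dotted lines at a 2-fold difference. The highest point in the first panel is Slc38a3 at 4.32, and in the last panel Slc38a3 lies at 4.65 and Slc7a3 at −4.32.

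The sums of astrocyte, oligodendrocyte lineage, neuron and endothelial markers were all lowest in HER2CA day 15, as were Slc38a3 and Slc1a1. Of 12 astrocyte markers, 11 were in the table and summed to 13878 to 14893 CPM in gliomaspheres, 14399.6 to 14808 CPM in the 4OH-TAM-labelled libraries, 3433 to 3577 CPM in HER2CA day 15 and 8606 to 9973 CPM in controls, with none at 0. Of 12 oligodendrocyte lineage markers, 11 were in the table and summed to 3141 to 3472 CPM in gliomaspheres, 1052 to 1095 CPM in the 4OH-TAM-labelled libraries, 153 to 160.4 CPM in HER2CA day 15 and 572 to 623 CPM in controls, with none at 0. For neurons, 8 of 11 markers were in the table, without Rbfox3, Snap25 and Syt1. They summed to 650 to 667 CPM in gliomaspheres, 385 to 398 CPM in the 4OH-TAM-labelled libraries, 135 to 145 CPM in HER2CA day 15, where 1 marker was at 0, and 362 to 365 CPM in controls. Of 9 endothelial markers, 4 were in the table, without Pecam1, Cdh5, Cldn5, Tek and Emcn. They summed to 33.8 to 39.5 CPM in gliomaspheres, 48.7 to 49.3 CPM in the 4OH-TAM-labelled libraries, 3.83 to 4.22 CPM in HER2CA day 15 and 13.9 to 14.3 CPM in controls, and so were likewise lowest in HER2CA day 15. Fibroblast and mural markers summed to 153 to 162 CPM in gliomaspheres, 400 to 474 CPM in the 4OH-TAM-labelled libraries, 393 to 396 CPM in HER2CA day 15 and 516 to 544 CPM in controls. The part of other cell types in the transporter results was not tested.

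Levels of different genes were compared as CPM per kb of exon, with the length of all annotated exons. Slc3a2 ranked first in 3 groups, at 87.8 ± 13.7 CPM per kb in gliomaspheres, 204 ± 14.1 in the 4OH-TAM-labelled libraries and 251 ± 12.7 in HER2CA day 15, and second in controls at 103 ± 0.145 (SD, n = 2 in each group). Slc6a8 ranked first in controls, at 131 ± 1.67 CPM per kb. In gliomaspheres, Slc1a4 followed Slc3a2 at 75.5 ± 5.59 CPM per kb, a difference smaller than the SD of Slc3a2, and Slc7a5 came next at 67.9 ± 7.04. In both day 15 groups Slc7a5 was second, at 117 ± 26.7 CPM per kb in the 4OH-TAM-labelled libraries and 120 ± 4.48 in HER2CA day 15. The third place went to Slc1a4 in the 4OH-TAM-labelled libraries (70.1 ± 4.60 CPM per kb), to Slc7a1 in HER2CA day 15 (49.9 ± 0.833) and to Slc38a1 in controls (31.8 ± 2.11). The least abundant per length was Slc7a3 in gliomaspheres (0.256 CPM per kb) and controls (0.164), Slc1a5 in the 4OH-TAM-labelled libraries (0.848) and Slc1a1 in HER2CA day 15 (0.134).

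**Figure D4:**
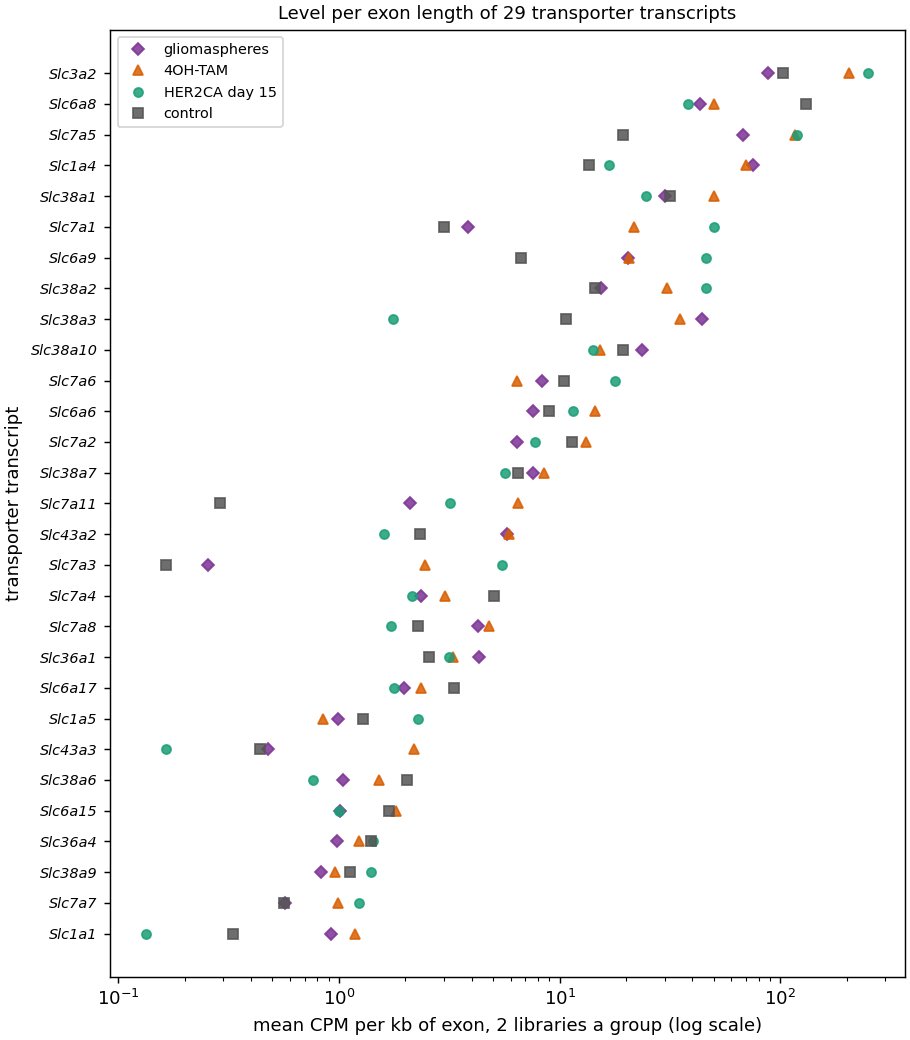
Group mean level per exon length (CPM per kb, log axis, 2 libraries a group) of the 29 transporter transcripts, ordered from top to bottom by their highest group mean. Slc3a2 and Slc6a8 lead, Slc38a3 spreads widely between gliomaspheres and HER2CA day 15, and Slc7a11 lies at 0.290 CPM per kb in controls.

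Other genes of amino acid handling were counted in 7 lists. Over all genes, the shares called higher and lower were 40.8% and 39.7% in the 4OH-TAM-labelled libraries against HER2CA day 15, 37.3% and 38.4% in HER2CA day 15 against controls, 31.0% and 28.2% in the 4OH-TAM-labelled libraries against controls, 32.5% and 32.0% in gliomaspheres against controls, and 38.4% and 40.4% in gliomaspheres against HER2CA day 15. Each list's shares below are set against these. Of 22 transcripts of the starvation response (targets and partners of ATF4), 2 were higher and 17 lower (9.09% and 77.3%) in the 4OH-TAM-labelled libraries against HER2CA day 15, with a median log2 fold change of −0.75. Against controls, 18 were higher and 2 lower in HER2CA day 15 (81.8% and 9.09%, median 2.54), 18 higher and 3 lower in the 4OH-TAM-labelled libraries (81.8% and 13.6%, median 1.57), and 8 higher and 7 lower in gliomaspheres (36.4% and 31.8%, median 0.02). In gliomaspheres against HER2CA day 15, 2 were higher and 19 lower (9.09% and 86.4%, median −2.54). The gliomasphere counts against controls were thus near the share in all genes. Trib3, a pseudokinase induced by ATF4, averaged 169 CPM in HER2CA day 15 and 1.78 CPM in controls (log2 fold change 6.56, SE 0.150, edgeR adjusted p = 1.72e-13). Nupr1, a stress-induced chromatin protein, averaged 91.1 CPM in the 4OH-TAM-labelled libraries and 597 CPM in HER2CA day 15 (−2.71, SE 0.0840, edgeR adjusted p = 8.7e-13).

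Of 15 transcription factors and other regulators of carriers, 4 were higher and 10 lower (26.7% and 66.7%) in the 4OH-TAM-labelled libraries against HER2CA day 15. Against controls, 8 were higher and 4 lower (53.3% and 26.7%) in HER2CA day 15, 7 higher and 5 lower (46.7% and 33.3%) in the 4OH-TAM-labelled libraries, and 7 higher and 4 lower (46.7% and 26.7%) in gliomaspheres. In gliomaspheres against HER2CA day 15, 5 were higher and 8 lower (33.3% and 53.3%). The median log2 fold changes of these 5 comparisons, as ordered here, were −0.45, 0.30, 0.10, 0.19 and −0.24, while over all genes the medians lay between −0.03 and 0.01. Atf4 itself had 105 and 92.0 CPM in gliomaspheres, 345 and 361 CPM in the 4OH-TAM-labelled libraries, 771 and 842 CPM in HER2CA day 15, and 88.0 and 79.5 CPM in the controls. Its transcript was thus high in both day 15 groups and highest in HER2CA day 15 (log2 fold change over controls 3.27, SE 0.0917, edgeR adjusted p = 7.25e-13). Myc, a factor known to act on Slc7a5 and Slc1a5, had 99.1 and 116 CPM in gliomaspheres, 59.8 and 68.9 CPM in the 4OH-TAM-labelled libraries, 102 and 108 CPM in HER2CA day 15, and 20.3 and 21.1 CPM in the controls.

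Of 33 transcripts of amino acid sensing and mTORC1, 6 were higher and 19 lower (18.2% and 57.6%) in the 4OH-TAM-labelled libraries against HER2CA day 15. Against controls, 19 were higher and 8 lower (57.6% and 24.2%) in HER2CA day 15, 6 higher and 12 lower (18.2% and 36.4%) in the 4OH-TAM-labelled libraries, and 8 higher and 15 lower (24.2% and 45.5%) in gliomaspheres. In gliomaspheres against HER2CA day 15, 7 were higher and 19 lower (21.2% and 57.6%). Most differences were under 2-fold. Medians over the list, for the comparisons as ordered here, were −0.43, 0.28, −0.10, −0.16 and −0.35 on the log2 scale. Sesn2, a leucine sensor that restrains mTORC1, averaged 224 CPM in HER2CA day 15 and 57.2 CPM in controls (log2 fold change 1.97, SE 0.0717, edgeR adjusted p = 5.04e-12). Its relative Sesn1 averaged 12.1 CPM in HER2CA day 15 and 36.8 CPM in controls (−1.60, SE 0.0979, edgeR adjusted p = 1.1e-09).

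For cystine and glutathione use, 6 of 17 transcripts were higher and 6 lower (35.3% each) in the 4OH-TAM-labelled libraries against HER2CA day 15, near the share in all genes, and 9 were higher and 5 lower (52.9% and 29.4%) in HER2CA day 15 against controls. The counts were 6 and 3 (35.3% and 17.6%) in the 4OH-TAM-labelled libraries against controls, 3 and 8 (17.6% and 47.1%) in gliomaspheres against controls, and 5 and 9 (29.4% and 52.9%) in gliomaspheres against HER2CA day 15. In the same order, the median log2 fold changes were 0.05, 0.29, 0.0079, −0.20 and −0.39. Chac1, which breaks down glutathione and is also in the starvation list, averaged 69.0 CPM in HER2CA day 15 and 1.66 CPM in controls (log2 fold change 5.37, SE 0.132, edgeR adjusted p = 2.09e-13). Gclc, the catalytic subunit that makes the first glutathione precursor, averaged 95.5 CPM in the 4OH-TAM-labelled libraries and 258 CPM in HER2CA day 15 (−1.43, SE 0.0895, edgeR adjusted p = 1.23e-09), while Slc7a11 was higher in that comparison.

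For glutamine and glutamate use, 4 of 15 transcripts were higher and 9 lower (26.7% and 60%) in the 4OH-TAM-labelled libraries against HER2CA day 15, and 10 were higher and 5 lower (66.7% and 33.3%) in HER2CA day 15 against controls. The counts were 5 and 4 (33.3% and 26.7%) in the 4OH-TAM-labelled libraries against controls, near the share in all genes, 6 and 4 (40% and 26.7%) in gliomaspheres against controls, and 5 and 8 (33.3% and 53.3%) in gliomaspheres against HER2CA day 15. The list had median log2 fold changes of −0.66, 0.54, −0.08, 0.17 and −0.29 in that order. Glul, the glutamine synthetase of astrocytes, averaged 898 CPM in the 4OH-TAM-labelled libraries and 197 CPM in HER2CA day 15 (log2 fold change 2.19, SE 0.0870, edgeR adjusted p = 9.54e-12), in the same direction as the glutamine carrier Slc38a3. Asns, asparagine synthetase, averaged 404 CPM in HER2CA day 15 and 23.4 CPM in controls (4.11, SE 0.115, edgeR adjusted p = 7.25e-13).

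Of 16 partners in the clearance of neurotransmitters and in creatine synthesis, 14 were higher and 1 lower (87.5% and 6.25%) in the 4OH-TAM-labelled libraries against HER2CA day 15, and 2 were higher and 11 lower (12.5% and 68.8%) in HER2CA day 15 against controls. The counts were 8 and 3 (50% and 18.8%) in the 4OH-TAM-labelled libraries against controls, 10 and 4 (62.5% and 25%) in gliomaspheres against controls, and 12 and 1 (75% and 6.25%) in gliomaspheres against HER2CA day 15. Its median log2 fold changes, taken in that order, were 1.22, −0.82, 0.23, 0.33 and 0.90. Gatm, the first enzyme of creatine synthesis, averaged 439 CPM in gliomaspheres and 88.4 CPM in controls (log2 fold change 2.31, SE 0.0771, edgeR adjusted p = 4.01e-12), while the creatine carrier Slc6a8 was lower there. Abat, which degrades GABA, averaged 326 CPM in the 4OH-TAM-labelled libraries and 59.5 CPM in HER2CA day 15 (2.45, SE 0.0802, edgeR adjusted p = 1.49e-12).

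Of 20 other amino acid carriers, mostly of mitochondria and lysosomes, 4 were higher and 7 lower (20% and 35%) in the 4OH-TAM-labelled libraries against HER2CA day 15, and 8 were higher and 4 lower (40% and 20%) in HER2CA day 15 against controls. The counts were 7 and 6 (35% and 30%) in the 4OH-TAM-labelled libraries against controls, near the share in all genes, 8 and 7 (40% and 35%) in gliomaspheres against controls, and 6 and 10 (30% and 50%) in gliomaspheres against HER2CA day 15. Median log2 fold changes were −0.04, 0.25, 0.04, 0.29 and −0.34 in that order. Slc25a18, a mitochondrial glutamate carrier, averaged 207 CPM in gliomaspheres, 146 CPM in the 4OH-TAM-labelled libraries, 2.003 CPM in HER2CA day 15 and 39.3 CPM in controls. Its log2 fold change in the 4OH-TAM-labelled libraries against HER2CA day 15 was 6.18 (SE 0.140, edgeR adjusted p = 2.26e-13), larger than that of any of the 29 transporters.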

How the data were processed

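PolyA RNA from 8 samples was sequenced after stranded library preparation, per the labels' protocols. The deposited values are read counts for each gene symbol, whole numbers without normalisation by the authors, judging by the values. The submitters' processing notes name STAR 2.5.3a, FastQC, featureCounts, GRCm38 and mm10. The sources used here do not give the annotation or strand setting of the counting. Columns were matched to samples by title. Counts of the 2 libraries of each group differed by more than sampling noise (chi-square per degree of freedom 723 in gliomaspheres, 4.05 in 4OH-TAM, 5.51 in HER2CA day 15 and 12.5 in controls), so each library counted as 1 replicate. These values cover all genes, with libraries scaled to total counts alone. Rn45s took 36.1% of counts in gliomaspheres B and 0.984% in gliomaspheres A, and the value for gliomaspheres includes this difference.

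In R 4.3.3, edgeR 4.0.16 with TMM factors fitted 1 mean for each group by quasi-likelihood over all 8 libraries (4 residual degrees of freedom; filterByExpr kept all 13607 genes). Each of 5 comparisons used glmQLFTest, and p-values were adjusted over all genes by Benjamini and Hochberg, with a threshold of 0.05. Each SE is the size of the log2 fold change divided by the root of its F statistic. CPM used TMM-scaled library sizes, apart from the level of 1.01 CPM and the filter of 5 CPM, which used library size alone. The model was also run on simulated data, whose outcome is not given here. Positions and exon lengths come from GENCODE M21. Members, lists, motifs and alternatives were chosen with earlier results of these data known. Of the transporters the rule took, 1 is not reported here. Values in every library are given for transporters called in any comparison with a change of at least 2-fold and a mean of 5 CPM or more where they were higher (19 of 29). From each list, up to 2 genes a comparison with the largest absolute change among those called, at 5 CPM or more, could be named. Not every one is named. Atf4 and Myc were shown in every library after their values were seen. Alternatives included DESeq2 1.42.0, other scaling factors and filters, a test against 1.5-fold, a fit of 2 groups alone, a block for the replicate letter, removal of Rn45s and Lars2, and each library left out in turn.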

Additional observations from a re-analysis of the deposited data

How the results depend on the processing

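For the 19 transporters shown library by library, all 826 alternative values of their 59 calls of at least 2-fold kept their direction and their side of the threshold. Smaller calls were less stable. Of 145 calls (29 transporters in 5 comparisons), 42 changed with unscaled library sizes, 50 in a test against a 1.5-fold change, 12 with upper-quartile factors, 3 with relative log expression factors, 3 with DESeq2, 4 with a filter of 5 CPM and 2 to 9 with a library left out. None changed without Rn45s and Lars2. The fit without a filter was the main fit again, since filterByExpr kept all genes, so it could change no call. The 826 values include that fit. With the filter of 5 CPM, 28 transporters were tested, so its 4 changes do not cover the calls of the transporter it dropped, Slc7a7. Leaving out a library rechecked only the comparisons that use its group, so those changes are out of fewer than 145 calls.

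With unscaled library sizes, 12 transporters were higher and 5 lower in the 4OH-TAM-labelled libraries against HER2CA day 15 (31.9% and 15.0% of all genes). Against controls, 10 were higher and 8 lower in HER2CA day 15 (16.9% and 26.4% of all genes). In the 4OH-TAM-labelled libraries against controls, 14 were higher and 1 lower (15.5% and 3.96%). Gliomaspheres had 7 higher and 6 lower against controls (10.2% and 24.0%), and 6 higher and 13 lower against HER2CA day 15 (22.3% and 34.0%). Over all genes the median log2 fold change was then −0.33 in gliomaspheres against controls, and Slc38a10 turned to −0.05. In the test against 1.5-fold, 5 were lower in the 4OH-TAM-labelled libraries against HER2CA day 15, 9 higher and 7 lower in HER2CA day 15 against controls, 1 lower in the 4OH-TAM-labelled libraries against controls, 4 lower in gliomaspheres against controls and 7 higher and 9 lower in gliomaspheres against HER2CA day 15. Leaving out 1 library gave 7 to 11 lower in gliomaspheres against controls, with 7 without control A. Upper-quartile factors moved the median of all genes to 0.22 in the 4OH-TAM-labelled libraries against HER2CA day 15. In that comparison 18 transporters were higher and 7 lower, beside 48.3% and 30.2% of all genes. The median moved to −0.17 in HER2CA day 15 against controls, with 11 higher and 14 lower (30.9% and 44.8% of all genes). Differences under about 1.5-fold, and transcripts with few counts such as Slc7a3 outside the day 15 groups, are the least certain.

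Whether the letters A and B mark pairs across groups is not settled. The correlation of A minus B between groups was −0.0314 to 0.0554 over all genes, where counting noise can hide a pairing. With the letter as a replicate block, 16 transporters were higher and 8 lower in the 4OH-TAM-labelled libraries against HER2CA day 15. Over all genes the shares were 40.7% and 39.7%. Against controls, 14 were higher and 13 lower in HER2CA day 15 (37.4% and 38.3% of all genes). In the 4OH-TAM-labelled libraries against controls, 19 were higher and 7 lower (31.0% and 28.3%). Gliomaspheres had 12 higher and 11 lower against controls (32.5% and 31.9%), and 11 higher and 14 lower against HER2CA day 15 (38.4% and 40.3%). The block changed 1 call, Slc38a7 in gliomaspheres against controls (0.22, edgeR adjusted p = 0.0498 with the block and 0.0582 without).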
